A study of Homo sapiens with 12 samples.

Results

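MAF, the large MAF factor that is switched on by chromosomal translocation in a subset of multiple myeloma, was followed together with the 3 small MAF factors MAFF, MAFG and MAFK and with 3 genes that MAF is known to drive in myeloma cells, ITGB7, CCR1 and NUAK1. These 7 genes were chosen by name, and all of them were found by Ensembl ID among the 60666 genes of the deposited count table. Each of the 7 passed the filter on low counts that left 23493 genes for testing. RNA had been sequenced in KMS-11, KMS-12 and RPMI8226, established human myeloma lines that the labels give as wild type. They were kept either with JQ1 at 1 µM for 72 h or with its solvent DMSO. Every combination of line and treatment had 2 libraries, which gives 6 groups and 12 libraries. JQ1 blocks the bromodomains through which BET proteins dock on acetylated chromatin, and it was added to study how genes that become active in myeloma respond to such a drug. Each line stands for a single tumour, so line and MAF status cannot be told apart beyond these 3 lines. The labels do not say whether the 2 libraries of a group came from separate cultures. All p-values below therefore measure only the spread between these libraries.

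MAF is a basic leucine zipper protein that binds a palindromic DNA element, the MAF recognition element or MARE, and has a domain that activates transcription. The small MAF proteins bind the same kind of element but lack that domain, and they act as partners of the CNC and BACH proteins, among them NRF2 and BACH1. In myeloma, MAF is placed beside an immunoglobulin enhancer in some tumours and drives cyclin D2, integrin beta 7, the chemokine receptor CCR1 and the kinase NUAK1. KMS-11 and RPMI8226 are known as lines with a MAF translocation, and KMS-12 as a cyclin D1 line. The labels themselves do not give these lesions.

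The genes are scattered over 6 chromosomes, and their positions in GRCh38 (GENCODE 29) set the windows described here. MAF spans chr16:79585843-79600714 on the minus strand, ITGB7 chr12:53191318-53207307 on the minus strand, CCR1 chr3:46201709-46208396 on the minus strand and NUAK1 chr12:106063340-106140033 on the minus strand. MAFF spans chr22:38200767-38216511 on the plus strand, MAFG chr17:81918270-81927714 on the minus strand and MAFK chr7:1530714-1543043 on the plus strand. The annotation lists no gene overlapping MAF, whereas MAFG shares its strand with the overlapping SIRT7, and the other 5 overlap a gene on the opposite strand (PLA2G6 for MAFF, TMEM184A for MAFK, ZNF740 for ITGB7, CCR3 for CCR1 and AC011595.1 for NUAK1). How reads in such overlaps were counted is not given in the sources used here, so these levels carry that uncertainty. MAF, ITGB7, CCR1 and NUAK1 were read in both MAF lines and were nearly or fully absent from KMS-12. For NUAK1, 0 of the 250 bases before its RefSeq start also lay upstream of its GENCODE start. The bases just upstream of MAF, ITGB7 and CCR1 are therefore shown. They are RefSeq sequence of GRCh38.p14, written 5′ to 3′ along the minus strand at chr16:79600738-79600987, chr12:53207308-53207501 and chr3:46208397-46208563. Capitals mark matches to the motifs listed after them.
MAF: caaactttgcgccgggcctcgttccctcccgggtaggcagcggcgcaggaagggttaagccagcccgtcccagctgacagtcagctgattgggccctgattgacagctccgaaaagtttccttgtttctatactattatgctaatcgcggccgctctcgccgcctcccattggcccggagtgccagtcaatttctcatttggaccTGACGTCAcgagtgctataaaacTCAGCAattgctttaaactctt
ITGB7: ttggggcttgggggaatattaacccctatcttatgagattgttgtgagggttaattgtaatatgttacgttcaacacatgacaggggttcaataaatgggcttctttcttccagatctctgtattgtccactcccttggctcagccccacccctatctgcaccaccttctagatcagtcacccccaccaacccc
CCR1: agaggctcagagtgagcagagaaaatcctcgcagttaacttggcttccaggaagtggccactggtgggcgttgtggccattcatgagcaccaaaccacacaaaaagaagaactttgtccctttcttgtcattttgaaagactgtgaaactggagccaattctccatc
The motifs searched on both strands were the MARE core TGCTGA, the AP-1 element TGACTCA, the cAMP response element TGACGTCA, and the full T-type and C-type MARE, which contain the AP-1 and cAMP elements flanked by the core. The window was 250 bases before each RefSeq start, and 35116 promoters were searched. MAF held a cAMP response element from -45 to -38 and a MARE core, read TCAGCA on this strand, from -22 to -17, counted from its RefSeq start. No listed motif was present in the windows of ITGB7, CCR1, NUAK1 or MAFG. MAFF has 2 RefSeq starts, and the window of the first held a cAMP response element from -54 to -47, while that of the second held 0 motifs. Both MAFF starts lay inside its GENCODE gene. Of all promoters of this length, 14% held the MARE core, 4.20% the AP-1 element and 1.65% the cAMP response element, and 0 held either full element. MAFK was not searched. These matches describe letters only, and binding was not measured here.

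The libraries held 15424512 to 27366499 counts each, and a library with 0 reads of a gene leaves room for up to 3 counts, or 0.107 to 0.178 CPM. This floor covers counting error only. Levels are CPM, the count of a gene relative to the TMM-scaled library size, and JQ1 changes are therefore relative to the bulk of the genes. In these bulk RNA samples, fewer cells of a type and less RNA per cell cannot be told apart. MALAT1, a nuclear RNA, was the most abundant gene in each library and took 3.61% to 9.01% of the counts with DMSO, 14.5% to 16.5% in KMS-11 with JQ1, 25.7% to 25.8% in KMS-12 with JQ1 and 6.31% to 6.56% in RPMI8226 with JQ1. Without TMM scaling the median change of all genes with JQ1 moved from 0.00 to -0.25 (log2) in KMS-11, and in KMS-12 from -0.06 to -0.82, and the share of calls that were higher fell from 45.0% to 23.8% and from 44.0% to 7.49%. All 7 plasma cell markers were read in each group, with a summed level of 1578 to 4025 CPM. The marker lists of B cells, T and NK cells, myeloid cells and stromal cells summed to at most 24.4 CPM in any library.

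MAF RNA was abundant in KMS-11 and RPMI8226 and all but missing from KMS-12. In KMS-11, MAF stood at 1616 and 1667 CPM with DMSO and at 1265 and 1111 CPM with JQ1. In RPMI8226 the levels were 1176 and 964 CPM with DMSO and 1244 and 913 CPM with JQ1. In KMS-12, MAF had 0 reads in both DMSO libraries, and 2 reads and 0 reads in the JQ1 libraries. KMS-11 with DMSO was the highest group and overlapped no other, while the JQ1 libraries of KMS-11 overlapped those of RPMI8226, where the JQ1 and DMSO libraries also overlapped. MAF ranked between 23 and 55 among all genes by CPM in the 8 libraries of the MAF lines. Without drug, MAF was at least 30352-fold higher in KMS-11 and at least 19630-fold higher in RPMI8226 than in KMS-12, whose 0 reads were replaced by 3 counts for the group. Because MAF defines this split, these bounds are a description with no test.

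Between the MAF lines, MAF was lower in RPMI8226 by a log2 difference of -0.62 (SE 0.15, adjusted p = 0.00277, edgeR's quasi-likelihood test with Benjamini-Hochberg adjustment over all genes tested). This call was lost without KMS-11 DMSO replicate 2 (-0.58, adjusted p = 0.0851). With JQ1, MAF fell in KMS-11 by 0.47 on the log2 scale (SE 0.15, adjusted p = 0.0242). That call rested on few libraries. It was lost without KMS-11 DMSO replicate 1 (-0.49, adjusted p = 0.154), without KMS-11 DMSO replicate 2 (-0.43, adjusted p = 0.238) and without KMS-11 JQ1 replicate 2 (-0.37, adjusted p = 0.172), and library sizes alone gave -0.73. In RPMI8226 the log2 difference for MAF was 0.01 (SE 0.15, adjusted p = 0.989), and its sign changed with the scaling and with the library left out. The difference between the MAF responses of RPMI8226 and KMS-11 was 0.48 (SE 0.21, adjusted p = 0.191), so that the test did not separate the lines.

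**Figure D1:**
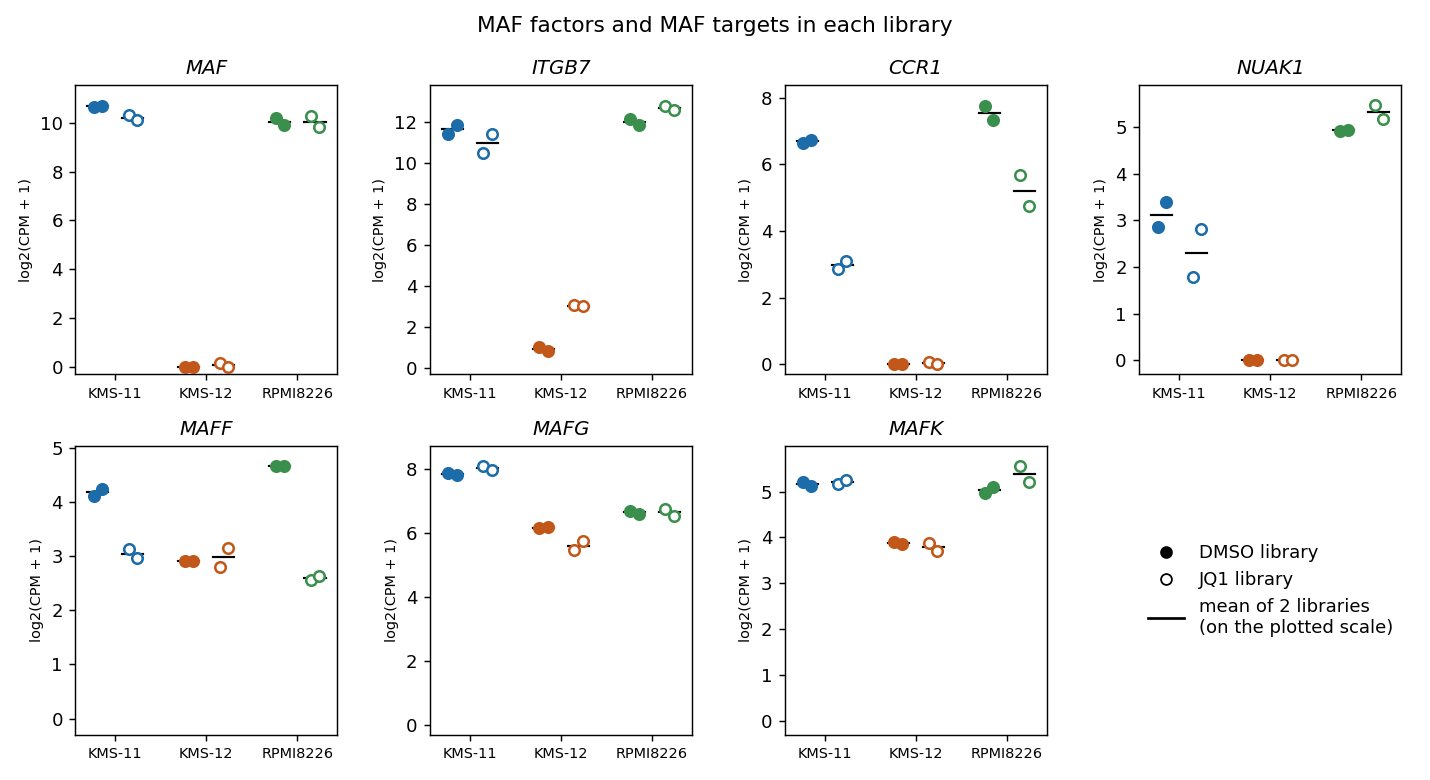
Level of the 7 genes in each library, as log2(CPM + 1) on the vertical axis, for KMS-11, KMS-12 and RPMI8226. Filled points are DMSO libraries, open points JQ1 libraries and lines the mean of 2 libraries; MAF, CCR1 and NUAK1 lie at or near 0 in all 4 KMS-12 libraries, and the JQ1 points of MAFF lie below its DMSO points in KMS-11 and RPMI8226.

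Each of the 3 MAF targets was much higher in both MAF lines than in KMS-12. CCR1 and NUAK1 had 0 reads in KMS-12 without drug and passed the filter on low counts only through the MAF lines, so that for them, as for MAF, bounds are given with no test. The remaining 4 genes, ITGB7 and the small MAF genes, were read in KMS-12, and 4 of 4 were called higher without drug in KMS-11 and 4 of 4 in RPMI8226, with a threshold of 0.05 on the adjusted p. Over all genes tested, 62.9% were called in KMS-11 against KMS-12, 32.7% higher and 30.2% lower, and 62.5% in RPMI8226 against KMS-12, 33.2% higher and 29.3% lower. Both comparisons share the KMS-12 DMSO libraries, and the JQ1 comparisons share the DMSO libraries of their line with them. With JQ1, CCR1 fell in both lines that express it. ITGB7 was called in KMS-12 alone, where it rose from a low level, and its changes in the MAF lines fell short of the threshold.

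ITGB7 encodes the beta chain of integrins alpha4beta7 and alphaEbeta7, which bind MAdCAM-1 and E-cadherin. In KMS-11 it reached 2812 and 3724 CPM with DMSO, and 1460 and 2819 CPM with JQ1. RPMI8226 had 4652 and 3752 CPM with DMSO, and 7185 and 6154 CPM with JQ1. In KMS-12 the values were 1.07 and 0.801 CPM with DMSO, from 30 and 22 reads, and 7.32 and 7.16 CPM with JQ1, from 145 and 136 reads. The RPMI8226 libraries with JQ1 were the highest, the DMSO libraries of RPMI8226 came next, and those of KMS-11 overlapped with the JQ1 libraries of KMS-11. ITGB7 ranked 5 by CPM in each RPMI8226 JQ1 library and 6 in each RPMI8226 DMSO library. KMS-12 stayed far below both MAF lines with either treatment.

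Without drug, ITGB7 was higher than in KMS-12 by a log2 difference of 11.76 in KMS-11 (SE 0.47, adjusted p = 2.7e-08) and of 12.12 in RPMI8226 (SE 0.48, adjusted p = 2.38e-08). RPMI8226 and KMS-11 differed by 0.36 (SE 0.28, adjusted p = 0.296), short of the threshold, which was passed without either KMS-11 JQ1 library (adjusted p = 0.0346 and 0.0338). Without 1 of the DMSO libraries of these lines, the ITGB7 difference ran from 0.17 to 0.59 and was not called. With JQ1, ITGB7 rose in KMS-12 by 2.94 (SE 0.48, adjusted p = 0.000999, edgeR with Benjamini-Hochberg adjustment), and the JQ1 libraries lay well above both DMSO libraries. With limma-voom, the same difference had an adjusted p of 0.182, and over the 20 alternatives it ranged from 2.18 to 3.17. In KMS-11 the JQ1 difference of ITGB7 was -0.61 (SE 0.28, adjusted p = 0.121). It depended on the library left out. It was -1.16 without KMS-11 JQ1 replicate 2 (adjusted p = 7.74e-05), whose level lay between those of the DMSO libraries, but -0.21 without KMS-11 JQ1 replicate 1 (adjusted p = 0.408) and -0.38 without KMS-11 DMSO replicate 2 (adjusted p = 0.52). In RPMI8226 the difference was 0.67 (SE 0.28, adjusted p = 0.104), with both JQ1 libraries above both DMSO libraries. Leaving out KMS-11 JQ1 replicate 1 or 2, which enter only through the shared spread, kept 0.67 and brought the adjusted p to 0.00127 and 0.00126.

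CCR1 encodes a receptor for CCL3 and CCL5. In KMS-11 it fell from 98.6 and 106 CPM with DMSO to 6.28 and 7.57 CPM with JQ1. In RPMI8226 it fell from 216 and 159 CPM to 50.5 and 25.6 CPM. KMS-12 had 0 reads in both DMSO libraries, and 1 read and 0 reads in the JQ1 libraries. No groups of the MAF lines overlapped for CCR1, and their order was RPMI8226 with DMSO, KMS-11 with DMSO, RPMI8226 with JQ1 and KMS-11 with JQ1.

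The JQ1 change of CCR1 was -3.89 in KMS-11 (SE 0.37, adjusted p = 0.000297) and -2.29 in RPMI8226 (SE 0.33, adjusted p = 0.0026). Both calls held in all 20 alternatives, over which the change ranged from -4.15 to -3.75 in KMS-11 and from -2.87 to -1.89 in RPMI8226. The test of the difference between the CCR1 responses gave 1.6 (SE 0.48, adjusted p = 0.0993, edgeR with Benjamini-Hochberg adjustment). It passed in 5 alternatives, among them without RPMI8226 JQ1 replicate 1 (1.01, adjusted p = 0.0173) and without replicate 2 of that group (2.00, adjusted p = 9.44e-05). Without drug, CCR1 was at least 1891-fold higher in KMS-11 and at least 3425-fold higher in RPMI8226 than in KMS-12, where 3 counts stood in for its 0 reads. RPMI8226 exceeded KMS-11 by 0.87 (SE 0.31), with an adjusted p of 0.051, and 8 alternatives called it, 2 of which left out RPMI8226 JQ1 replicate 1 (adjusted p = 7.94e-05) or replicate 2 (adjusted p = 8.11e-05).

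NUAK1 encodes a kinase of the AMPK family that LKB1 activates. It was the least abundant target. KMS-11 held 6.27 and 9.51 CPM with DMSO and 2.43 and 6.06 CPM with JQ1, and RPMI8226 held 29.4 and 30.0 CPM with DMSO and 43.4 and 35.4 CPM with JQ1. KMS-12 had 0 reads in all 4 libraries. The groups of the MAF lines did not overlap, and both RPMI8226 groups lay above both KMS-11 groups.

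Without drug, NUAK1 was higher in RPMI8226 than in KMS-11 by a log2 difference of 1.91 (SE 0.35, adjusted p = 0.00192). Against KMS-12 it was at least 144-fold higher in KMS-11 and at least 550-fold higher in RPMI8226. The JQ1 difference in KMS-11 was -0.91 (SE 0.39, adjusted p = 0.105), and 6 of the 20 alternatives called it while 14 did not. It was -1.69 without KMS-11 JQ1 replicate 2 (adjusted p = 0.000323), but -0.38 without KMS-11 JQ1 replicate 1 (adjusted p = 0.326) and -0.58 without KMS-11 DMSO replicate 2 (adjusted p = 0.422). In RPMI8226 it was 0.41 (SE 0.33, adjusted p = 0.403, edgeR with Benjamini-Hochberg adjustment), and none of the 20 alternatives, over which it ran from 0.25 to 0.55, called it. The difference between these responses was 1.32 (SE 0.51, adjusted p = 0.165), and 5 alternatives called it, including the one without KMS-11 JQ1 replicate 2 (2.11, adjusted p = 0.000893), while it was 0.79 without KMS-11 JQ1 replicate 1 (adjusted p = 0.163).

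**Figure D2:**
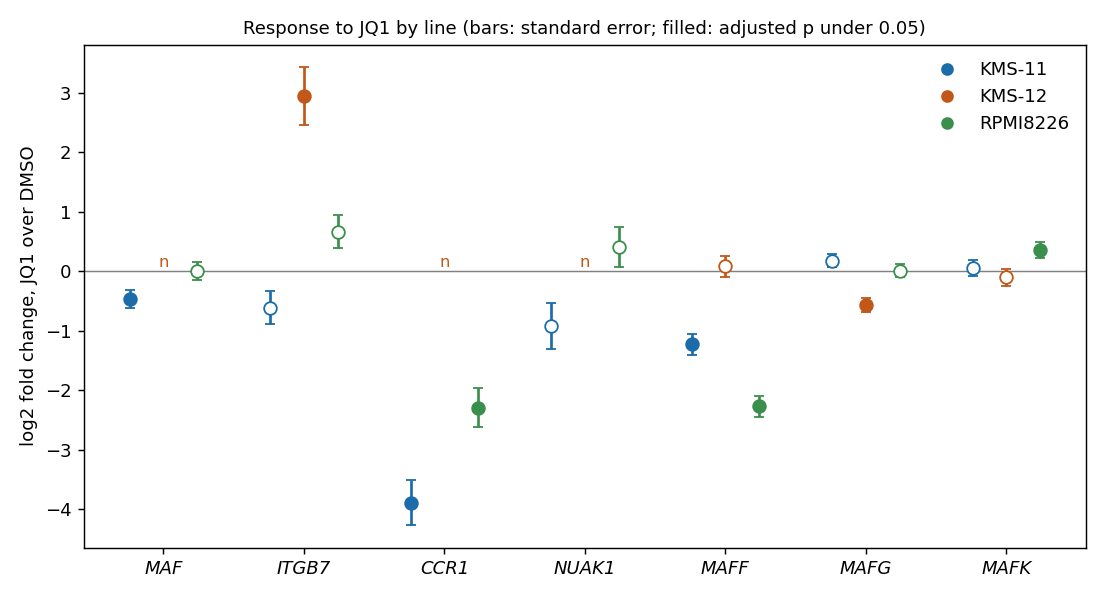
Log2 fold change with JQ1 for each gene and line, with the standard error of the fit (6 groups of 2 libraries). Filled points passed an adjusted p of 0.05, and n marks 3 KMS-12 values with at most 3 reads in each group; ITGB7 in KMS-12 is the largest rise at 2.94 and CCR1 in KMS-11 the largest fall at -3.89.

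The small MAF genes were read in all 12 libraries, and each was higher in the MAF lines than in KMS-12 without drug. Their responses to JQ1 differed by gene and by line. MAFF fell in the MAF lines, MAFG fell in KMS-12, and MAFK rose slightly in RPMI8226 with a call that few settings kept.

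MAFF is the small MAF gene best known as inducible by stress and inflammatory signals. In KMS-11 its level was 16.4 and 17.8 CPM with DMSO and 7.75 and 6.79 CPM with JQ1. In RPMI8226 it was 24.3 and 24.4 CPM with DMSO and 4.93 and 5.17 CPM with JQ1. In KMS-12 it was 6.52 CPM in both DMSO libraries and 6.01 and 7.84 CPM in the JQ1 libraries. The DMSO libraries of the MAF lines stood above all others, and the JQ1 libraries of KMS-11 overlapped those of KMS-12. With JQ1, MAFF fell, with a log2 change of -1.23 in KMS-11 (SE 0.17, adjusted p = 2.25e-05) and of -2.27 in RPMI8226 (SE 0.18, adjusted p = 6.83e-08), and all 20 alternatives kept both calls. In KMS-12 the log2 difference was 0.09 (SE 0.18, adjusted p = 0.764), but library sizes alone gave -0.68 (adjusted p = 0.00329).

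MAFG is the most abundant of the small MAF genes per kb of exon here. In KMS-11 it was read at 232 and 220 CPM with DMSO and at 267 and 245 CPM with JQ1. In RPMI8226 the values were 102 and 94.7 CPM with DMSO and 107 and 91.2 CPM with JQ1. In KMS-12 they were 69.6 and 71.1 CPM with DMSO and 42.6 and 52.5 CPM with JQ1. Only the JQ1 and DMSO libraries of RPMI8226 overlapped, and the order of the lines was KMS-11, RPMI8226, KMS-12. JQ1 lowered MAFG in KMS-12 by a log2 difference of -0.57 (SE 0.11, adjusted p = 0.000393), a call that held in all 20 alternatives and reached -1.34 with library sizes alone. The differences were 0.18 in KMS-11 (SE 0.11, adjusted p = 0.204) and 0.01 in RPMI8226 (SE 0.11, adjusted p = 0.982), and library sizes alone turned these to -0.08 and -0.02.

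MAFK is a near relative of MAFG with the same partners. KMS-11 held 35.8 and 33.7 CPM with DMSO and 35.1 and 37.1 CPM with JQ1. RPMI8226 held 30.3 and 33.2 CPM with DMSO and 46.0 and 35.8 CPM with JQ1, while KMS-12 held 14 and 13.5 CPM with DMSO and 13.7 and 11.9 CPM with JQ1. The ranges of both treatments overlapped for KMS-11 and for KMS-12, while among the RPMI8226 libraries a single JQ1 library stood well above the DMSO libraries. The JQ1 rise of MAFK in RPMI8226 was 0.37 (SE 0.13, adjusted p = 0.0439). It failed the threshold in 13 of 20 alternatives, among them RLE scaling (0.33, adjusted p = 0.0697) and DESeq2 (0.33, adjusted p = 0.104). It also failed without RPMI8226 JQ1 replicate 1 (0.17, adjusted p = 0.495), RPMI8226 DMSO replicate 1 (0.30, adjusted p = 0.246) and RPMI8226 DMSO replicate 2 (0.43, adjusted p = 0.0899), and without any single library of KMS-12 or KMS-11 JQ1 (adjusted p = 0.0502 to 0.0615). In KMS-11 the MAFK difference was 0.05 (adjusted p = 0.827) and in KMS-12 it was -0.10 (adjusted p = 0.608, edgeR with Benjamini-Hochberg adjustment); library sizes alone gave -0.21 and -0.87 (adjusted p = 5.1e-05 in KMS-12).

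Of the 7 genes, JQ1 called 3 lower and 0 higher in KMS-11, where 38.5% of all genes tested were called, 21.2% lower and 17.3% higher. In RPMI8226 it called 2 lower and 1 higher, beside 18.6% and 13.6% of all genes (32.2% in either direction). In KMS-12 it called 1 lower and 1 higher of the 4 genes that had more than 3 reads, beside 25.7% and 20.2% of all genes (46% in either direction). These shares of all genes are large, and the 7 genes' counts were not tested against them.

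Without drug, the small MAF genes exceeded KMS-12 by 1.39 (MAFF), 1.68 (MAFG) and 1.33 (MAFK) in KMS-11 and by 1.90, 0.48 and 1.2 in RPMI8226, all in log2 units and all called in each of the 19 alternatives. Between the MAF lines, MAFG was lower in RPMI8226 by a difference of -1.2 (SE 0.11, adjusted p = 3.59e-08). MAFF was higher in RPMI8226 by 0.51 (SE 0.16, adjusted p = 0.0128), a call lost without KMS-11 DMSO replicate 1 (0.45, adjusted p = 0.06), RPMI8226 DMSO replicate 1 (0.52, adjusted p = 0.0575) or RPMI8226 DMSO replicate 2 (0.51, adjusted p = 0.0617). MAFK differed by -0.13 (adjusted p = 0.419, edgeR with Benjamini-Hochberg adjustment). Of the 7 genes, 2 were called higher and 2 lower in RPMI8226 than in KMS-11, beside 30% and 28.2% of all genes (58.2% in either direction).

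Per kb of exon, levels can be compared between genes. MAF stood at 235 ± 5.15 CPM per kb (SD, n = 2) in KMS-11 with DMSO and at 153 ± 21.5 in RPMI8226 with DMSO. The small MAF genes summed to 52.8 and 55.5 CPM per kb in the same KMS-11 libraries and to 30.0 and 30.7 in those of RPMI8226, so that MAF RNA exceeded the small MAF RNA together in each. In KMS-12 with DMSO the small MAF sum was 17.6 and 17.8 CPM per kb, with 0 reads of MAF. With JQ1 that sum was 12.3 and 14.1 in KMS-12, 56.4 and 60.4 in KMS-11 and 26.4 and 31.7 in RPMI8226. MAFG made up 60.6% to 84.7% of the small MAF sum over the 12 libraries.

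The JQ1 response of the MAF lines, taken as the mean of KMS-11 and RPMI8226, was then tested against that of KMS-12. For MAF, CCR1 and NUAK1 this cannot be read, since KMS-12 held at most 2 reads in either group. MAFF responded more strongly downward in the MAF lines, with a difference of -1.84 (SE 0.22, adjusted p = 8.08e-06, edgeR with Benjamini-Hochberg adjustment). MAFG differed by 0.66 (SE 0.13, adjusted p = 0.00135), the fall being in KMS-12. ITGB7 differed by -2.92 (SE 0.53, adjusted p = 0.00387), with changes of -0.61 and 0.67 in the MAF lines against 2.94 in KMS-12, and limma-voom did not call it (-2.95, adjusted p = 0.233). MAFK differed by 0.31 (SE 0.17, adjusted p = 0.22). Of the 4 genes, 1 was called higher and 2 lower, beside 11.8% and 11.7% of all genes (23.5% in either direction). With library sizes alone, the differences of MAFF, MAFG and ITGB7 were -1.21, 1.29 and -2.29 and stayed called.

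Within the MAF lines, MAFF was the single gene of the 7 whose responses were called different, beside 11.4% of all genes, 6.7% called higher and 4.72% lower. Its fall in RPMI8226 exceeded that in KMS-11 by a difference of -1.04 (SE 0.25, adjusted p = 0.0106), and the call held in all 20 alternatives. The ITGB7 responses differed by 1.28 (SE 0.39, adjusted p = 0.0783, edgeR with Benjamini-Hochberg adjustment), short of the threshold. They passed without KMS-11 JQ1 replicate 1 (0.88, adjusted p = 0.0181) and without KMS-11 JQ1 replicate 2 (1.83, adjusted p = 4.77e-05). The MAF difference of 0.48 passed without RPMI8226 JQ1 replicate 2 (0.69, adjusted p = 0.0346) and was 0.23 without RPMI8226 JQ1 replicate 1 (adjusted p = 0.578).

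Next to MAF on chromosome 16, the lines differed in which neighbours were read. Of 9 neighbours listed, 7 were tested, and 3 of these (LINC01229, MAFTRR and DYNLRB2) had 0 reads in KMS-12 and passed the filter only through the MAF lines. Of the other 4, CDYL2 averaged at most 0.136 CPM in any group of KMS-12 and RPMI8226 and passed the filter only through KMS-11. Among the genes left, CENPN and CMC2 were called higher in KMS-11 than in KMS-12 and WWOX in RPMI8226. In either comparison 0 were called lower, beside 30.2% and 29.3% of all genes called lower and 32.7% and 33.2% called higher. The neighbours' counts were not tested against these shares. LINC01229 and MAFTRR are long non-coding RNA genes telomeric of MAF, with gaps of 75.4 kb and 114.5 kb to it, and overlap each other on opposite strands, so that their reads may be mixed where counting ignored strand. LINC01229 stood at 540 and 478 CPM in RPMI8226 with DMSO, at 5.50 and 6.20 CPM in KMS-11 and at 0 reads in each KMS-12 library. RPMI8226 exceeded KMS-11 by a log2 difference of 6.44 (SE 0.17), the opposite order to that of MAF.

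LINC01229 fell with JQ1 in KMS-11 by 2.6 (SE 0.25), to 0.618 and 1.35 CPM. In RPMI8226 its JQ1 libraries held 451 and 385 CPM, and the difference of -0.28 (SE 0.13, adjusted p = 0.114, edgeR with Benjamini-Hochberg adjustment) passed in 3 alternatives. The responses differed by 2.32 (SE 0.29, adjusted p = 0.000143). CDYL2, a chromodomain gene with a gap of 997 kb to MAF, had 51.5 and 54.2 CPM in KMS-11 with DMSO against at most 3 reads in each library of the other lines. It rose with JQ1 in KMS-11 to 72.2 and 79.1 CPM, by 0.52 (SE 0.14, adjusted p = 0.00584), and this was lost without KMS-11 JQ1 replicate 2 (0.45, adjusted p = 0.0723) and with library sizes alone (0.26). DYNLRB2, between them, had 42 and 11 reads in KMS-11 with DMSO, which is 1.63 and 0.473 CPM, and 0 reads in KMS-12. WWOX, the large gene centromeric of MAF, was higher in RPMI8226 than in KMS-12 by 0.93 (SE 0.19) and than in KMS-11 by 1.18 (SE 0.19). CENPN, which encodes a centromere protein, fell with JQ1 in KMS-12 by 1.95 (SE 0.36), from 10.7 and 14.2 CPM to 2.78 and 3.68 CPM. Its KMS-11 value of -1.43 (SE 0.32, adjusted p = 0.00397) was lost without KMS-11 JQ1 replicate 1 (-1.30, adjusted p = 0.0585) and was -0.79 without KMS-11 DMSO replicate 2. In RPMI8226 the CENPN value was 1.16 (SE 0.32, adjusted p = 0.0176), lost without RPMI8226 DMSO replicate 1 (1.33, adjusted p = 0.0542), RPMI8226 DMSO replicate 2 (1.00, adjusted p = 0.134) or RPMI8226 JQ1 replicate 2 (0.93, adjusted p = 0.109). CMC2, which encodes a mitochondrial protein, was higher in KMS-11 than in KMS-12 without drug by 1.18 (SE 0.18), or by 0.77 without KMS-11 DMSO replicate 2. CMC2 and CENPN overlap on opposite strands, so that their reads may also be mixed where counting ignored strand.

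**Figure D3:**
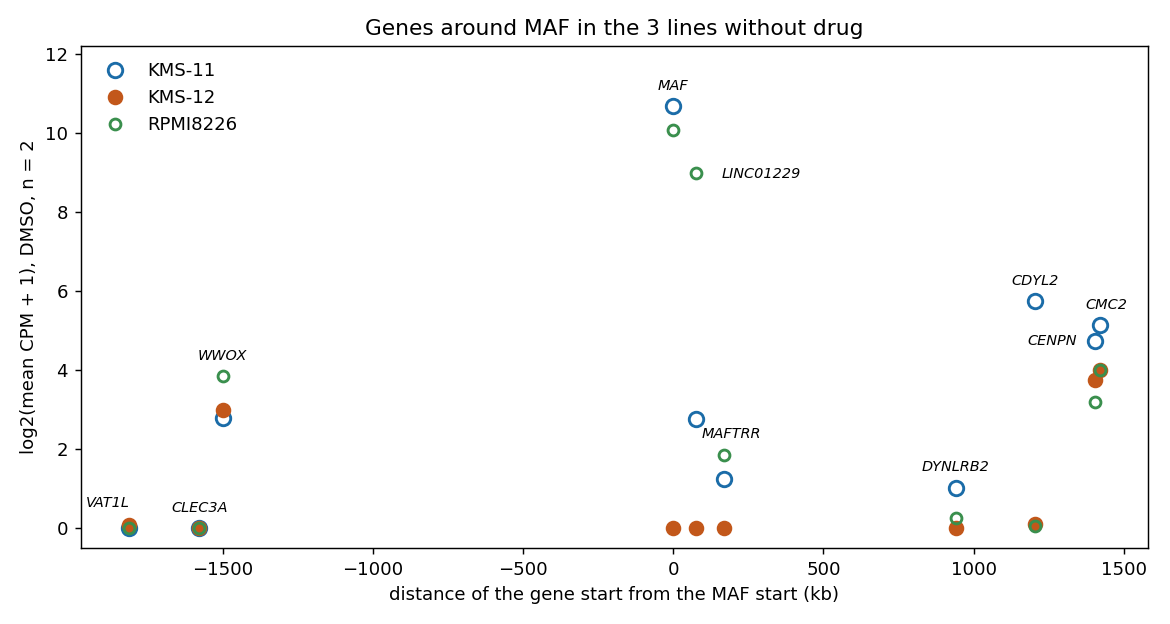
Mean level without drug, as log2(mean CPM + 1) of 2 libraries, of MAF and 9 neighbouring genes by the distance of each gene's start from the MAF start in kb, telomeric to the right. LINC01229 is far higher in RPMI8226 (green) than in KMS-11 (blue), CDYL2 is read in KMS-11 and barely elsewhere, and MAF, LINC01229 and MAFTRR lie at 0 in KMS-12 (orange).

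Among the other large MAF genes, MAFA and NRL had group means of at most 2.30 CPM.

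The wider set of 12 genes known from the MAF group of myeloma includes the 3 targets, and 11 of it were tested. Without drug, 4 of them (CCR1, NUAK1, CCND2 and SMARCA1) had 0 reads in KMS-12 and passed the filter only through the MAF lines. Of the other 7, CX3CR1 had 8 reads in KMS-12 and 16 in KMS-11 with DMSO and passed the filter only through RPMI8226. NTRK2 had 20 reads in KMS-12 with DMSO and 1 with JQ1, near the filter on low counts. With CX3CR1 and NTRK2 set aside, ITGB7, DEPTOR, ARID5A and TLR4 were called higher in KMS-11 than in KMS-12, and APOBEC3B lower. Of the same genes, ITGB7, ARID5A and TLR4 were called higher in RPMI8226 than in KMS-12, and 0 lower. Over all genes, 32.7% and 33.2% were called higher and 30.2% and 29.3% lower in these comparisons. The JQ1 counts were 1 higher and 6 lower in KMS-11 (median log2 change -1.4, against 0.00 over all genes). They were 2 higher and 5 lower in KMS-12, the 5 including CX3CR1, and 1 higher and 5 lower in RPMI8226 (median -0.43, against -0.03). Over all genes, 17.3%, 20.2% and 13.6% were called higher with JQ1 in KMS-11, KMS-12 and RPMI8226, and 21.2%, 25.7% and 18.6% lower. In KMS-12, 4 genes had at most 3 reads with either treatment, and the median over the other 7 was -2.97, or -1.63 with CX3CR1, which fell from 8 reads to 0, at its bound, against -0.06 over all genes. CCND2, the cyclin D2 gene, had 1671 and 1674 CPM in KMS-11 with DMSO, 1042 and 1106 CPM in RPMI8226 with DMSO and 0 reads in KMS-12 with DMSO. Its JQ1 differences were 0.07 in KMS-11 (adjusted p = 0.789) and 0.20 in RPMI8226 (adjusted p = 0.397), and the KMS-11 value was 0.38 without JQ1 replicate 1 (adjusted p = 0.02) and -0.31 without JQ1 replicate 2.

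CX3CR1, the fractalkine receptor, was read at 47.6 and 39.6 CPM in RPMI8226 with DMSO and at most at 0.464 CPM in any library of the other lines. It fell in RPMI8226 with JQ1 by 1.71 (SE 0.22), to 15.5 and 11 CPM. DEPTOR, an inhibitor of mTOR, fell with JQ1, with a log2 change of -1.4 in KMS-11 (SE 0.15) and of -2.97 in the KMS-12 line (SE 0.17). Its RPMI8226 value of -0.43 was called (adjusted p = 0.0377) but not without RPMI8226 DMSO replicate 1 (-0.38, adjusted p = 0.185), RPMI8226 DMSO replicate 2 (-0.49, adjusted p = 0.0857) or RPMI8226 JQ1 replicate 2 (-0.26, adjusted p = 0.275), nor without KMS-12 DMSO replicate 1 (adjusted p = 0.0531) or replicate 2 (adjusted p = 0.0522). DEPTOR was thus lower with JQ1 in the line without MAF as well.

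ARID5A, an RNA-binding protein that stabilises cytokine messages, was the list's rise in every line, with 0.93 (SE 0.20) for KMS-11, 2.12 (SE 0.21) for KMS-12 and 0.84 (SE 0.20) for RPMI8226. The KMS-11 call was lost without KMS-11 DMSO replicate 1 (0.80, adjusted p = 0.0856) and the RPMI8226 call without RPMI8226 DMSO replicate 2 (0.75, adjusted p = 0.0734), and without RPMI8226 JQ1 replicate 1 the latter was 0.52. The ARID5A value in KMS-12 was 1.35 with library sizes alone. TLR4, the receptor for endotoxin, fell in KMS-11 by 1.90 (SE 0.21), from 20.4 and 13.2 CPM to 5.0 and 3.98 CPM. The KMS-12 libraries together held 152 TLR4 reads with DMSO and 2 with JQ1. In RPMI8226 it had a value of -0.71 (SE 0.19, adjusted p = 0.00686), which was lost without RPMI8226 DMSO replicate 1 (-0.69, adjusted p = 0.0526) or RPMI8226 JQ1 replicate 1 (-0.69, adjusted p = 0.0547).

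APOBEC3B, a cytidine deaminase, was the single gene of the list called lower in KMS-11 than in KMS-12 without drug, by a difference of -2.27 (SE 0.43), or -3.41 without KMS-11 DMSO replicate 2. With JQ1 its values were -3.60 in KMS-11 (SE 0.69, adjusted p = 0.00297) and -1.63 in KMS-12 (SE 0.42, adjusted p = 0.0116, edgeR with Benjamini-Hochberg adjustment). The first was lost without KMS-11 JQ1 replicate 1 (-3.29, adjusted p = 0.0565), and the second without KMS-12 DMSO replicate 2 (-1.54, adjusted p = 0.0582) or KMS-12 JQ1 replicate 1 (-1.35, adjusted p = 0.0945). SMARCA1, a chromatin remodeller, had 28 reads in KMS-11 and 13 in RPMI8226 with DMSO, and 0 reads in both with JQ1 and in each KMS-12 library. NTRK2 had group means of at most 1.26 CPM.

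**Figure D4:**
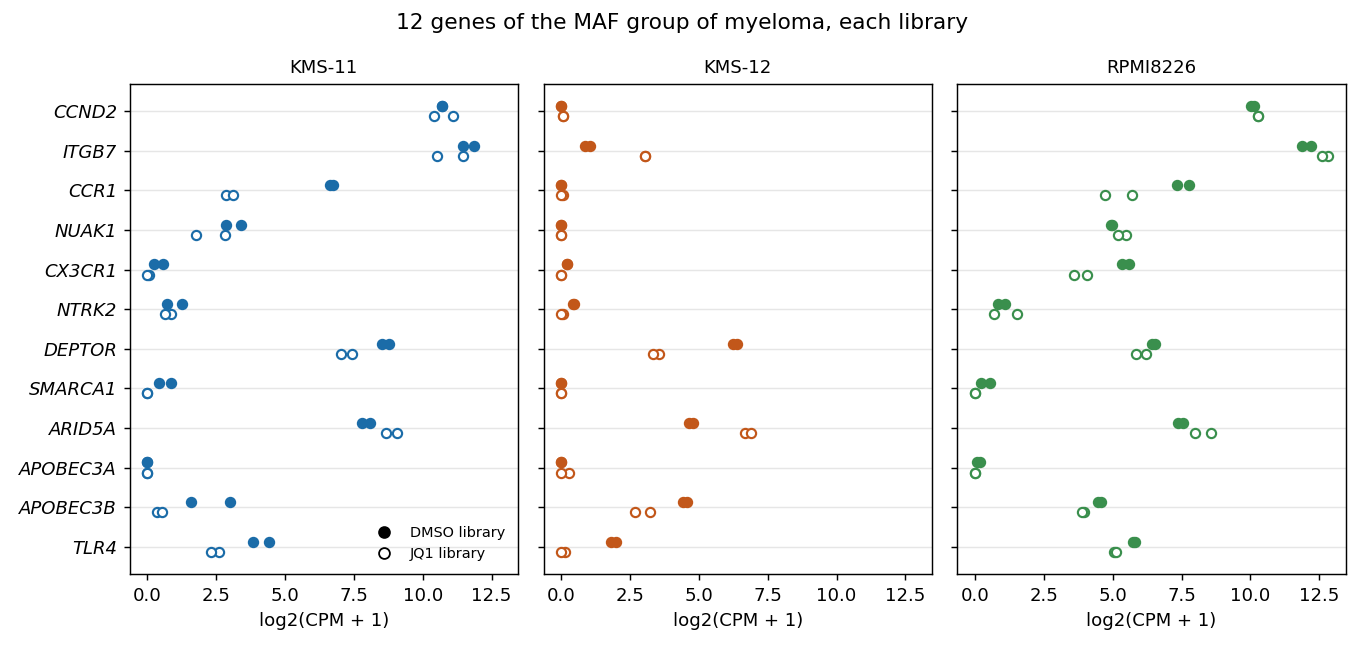
Level of 12 genes of the MAF group of myeloma in each library, as log2(CPM + 1) on the horizontal axis, with a panel for each line. Filled points are DMSO libraries and open points JQ1 libraries; CCND2, ITGB7 and CCR1 are high in KMS-11 and RPMI8226 with DMSO and near 0 in KMS-12, where APOBEC3B and DEPTOR are nevertheless read.

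Over the whole table, CCND2 had the profile most like that of MAF. Likeness was measured as the root mean square difference between centred log2 CPM profiles over the 6 group means, among 10131 genes with a mean of at least 10 CPM and with MAF itself left out. CCND2 differed by 0.185, followed by VIM (1.03), ADCY1 (1.13), TRIO (1.15) and TNS3 (1.22). Vimentin, the intermediate filament protein VIM, had 528 and 420 CPM on average in KMS-11 and RPMI8226 with DMSO, at most 0.0178 in KMS-12, and 2943 CPM in KMS-11 with JQ1. ITGB7 was at position 18 with 1.70, CCR1 at 88 with 2.61 and NUAK1 at 184 with 3.18. The small MAF genes were far down the order, MAFK at 978, MAFG at 1018 and MAFF at 2287. The 5 nearest genes had group means of at most 0.128 CPM in KMS-12, and all profiles share these 12 libraries. This measure reflects level as well as pattern. A gene absent from KMS-12 spans a smaller range between the lines where its level in the MAF lines is lower. The positions of CCR1 and NUAK1 can therefore not be read as likeness of pattern alone.

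Several partners of ITGB7 fell with JQ1 in all 3 lines, while ITGB7 itself was called only in KMS-12. ITGA4, which encodes the alpha4 chain, fell in KMS-11 (-1.89, SE 0.13), KMS-12 (-1.22, SE 0.12) and RPMI8226 (-2.41, SE 0.13). It was read at 144 and 117 CPM in RPMI8226 with DMSO and at 24.9 and 24.1 CPM with JQ1. FN1, the ligand fibronectin, fell as well, with values of -1.96, -1.85 and -2.54 in the same order of lines (SE 0.16, 0.17 and 0.16). FERMT3, the integrin activator kindlin-3, had values of -1.58, -0.80 and -1.39, all called (SE 0.14, 0.13 and 0.15). With library sizes alone the KMS-12 changes of ITGA4 and FERMT3 were -1.99 and -1.57. TLN1, the integrin linker talin, was higher with JQ1 in KMS-11 by 0.35 and in KMS-12 by 0.62 (SE 0.09 in each), but library sizes alone gave 0.09 (adjusted p = 0.421) and -0.15. Of 9 partners and ligands tested, 2 were called higher and 4 lower in KMS-11, with 2 and 3 for KMS-12 and 0 and 4 for RPMI8226. Their medians were -0.82, -0.38 and -0.55 against 0.00, -0.06 and -0.03 over all genes. The shares of all genes called higher were 17.3%, 20.2% and 13.6% in the same order of lines, and those lower 21.2%, 25.7% and 18.6%. Per kb of exon, ITGA4 stood at 3.05 to 18.2 CPM over the 12 libraries, against 326 to 1604 for ITGB7 in the MAF lines.

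Of 8 ligands of CCR1, 3 were tested, and 0 were called higher and 2 lower with JQ1 in KMS-11, with 2 and 0 for KMS-12 and 0 and 1 for RPMI8226. The shares of all genes called higher were 17.3%, 20.2% and 13.6% in the same order of lines, and those lower 21.2%, 25.7% and 18.6%. CCL5 fell in KMS-11 by 2.27 (SE 0.25), from 24.8 and 35.6 CPM to 5.85 and 6.67 CPM. The KMS-12 libraries together held 4 of its reads with DMSO and 21 with JQ1, a called change (adjusted p = 0.011, edgeR with Benjamini-Hochberg adjustment) that was lost without KMS-12 DMSO replicate 1 (1.85, adjusted p = 0.0521) or KMS-12 JQ1 replicate 2 (2.57, adjusted p = 0.0761), and whose 4 DMSO reads all came from KMS-12 DMSO replicate 2. CCL3 went from 0.214 and 0.546 CPM to 4.24 and 10.8 CPM in KMS-12, a log2 value of 4.29 (SE 0.96, adjusted p = 0.0104), lost without KMS-12 DMSO replicate 1 (3.77, adjusted p = 0.073) and with limma-voom (4.23, adjusted p = 0.0736). CCL3 and CCL3L3 are near-identical copies, and the split of reads between them is uncertain.

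In the NUAK1 pathway, 10 genes were tested, and 7 were called higher and 0 lower with JQ1 in KMS-11, with 5 and 1 for KMS-12 and 5 and 0 for RPMI8226. Their medians were 0.52, 0.35 and 0.34, against 0.00, -0.06 and -0.03 over all genes. The shares of all genes called higher were 17.3%, 20.2% and 13.6% in the same order of lines, and those lower 21.2%, 25.7% and 18.6%. STRADA, a cofactor of the upstream kinase LKB1, rose in every line, by 1.10, 1.12 and 0.46 in the order KMS-11, KMS-12, RPMI8226 (SE 0.09 in each). SIK2, a kinase of the same family, rose by 0.62, 1.03 and 0.64 (SE 0.10 in each). MARK2 rose by 0.60, 0.45 and 0.48 (SE 0.11 in each), and its KMS-12 value turned to -0.32 with library sizes alone, which gave 0.35 for STRADA and 0.26 for SIK2 there and 0.36 for SIK2 and 0.34 for MARK2 in KMS-11. SIK3 rose in KMS-12 by 1.32 (SE 0.11), or 0.55 with library sizes alone. Its KMS-11 value of 0.45 (SE 0.11, adjusted p = 0.00439) was lost with library sizes alone (0.19), without KMS-11 DMSO replicate 1 (0.27, adjusted p = 0.061) and without KMS-11 JQ1 replicate 2 (0.36, adjusted p = 0.0533). These genes and NUAK1 thus had unlike values with JQ1 in KMS-11, and this difference was not tested.

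Of the CNC and BACH partners of the small MAF proteins, 5 were tested, and 1 was called higher and 0 lower with JQ1 in KMS-11, with 3 and 2 for KMS-12 and 0 and 3 for RPMI8226. Their medians were 0.16, 0.62 and -0.33, against 0.00, -0.06 and -0.03 over all genes. The shares of all genes called higher were 17.3%, 20.2% and 13.6% in the same order of lines, and those lower 21.2%, 25.7% and 18.6%. BACH1, a repressor, was the gene called in KMS-11, at 0.24 (adjusted p = 0.0432), and that call was lost in 13 alternatives, with -0.02 for library sizes alone. It rose in KMS-12 by 0.62 (SE 0.09), but the value was -0.15 with library sizes alone, and BACH2 rose there by 1.22 (SE 0.16), or 0.45 with library sizes alone. NFE2L3 had 0.78 in KMS-12 (SE 0.11), or 0.01 with library sizes alone, and -0.39 in RPMI8226 (SE 0.11, adjusted p = 0.00868), lost without RPMI8226 DMSO replicate 2 (-0.35, adjusted p = 0.0791) or RPMI8226 JQ1 replicate 2 (-0.29, adjusted p = 0.111). NFE2L1, which drives proteasome genes, fell in KMS-12 by 2.35 (SE 0.25). In RPMI8226 its value of -1.02 (SE 0.24, adjusted p = 0.0114, edgeR with Benjamini-Hochberg adjustment) was lost without RPMI8226 DMSO replicate 2 (-0.97, adjusted p = 0.0693) or RPMI8226 JQ1 replicate 1 (-0.84, adjusted p = 0.0938).

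Most enzymes that NRF2 drives together with small MAF proteins rose with JQ1 in each line. Of 8 tested, those called higher with JQ1 numbered 7 for KMS-11, 7 for KMS-12 and 6 for RPMI8226, and 0 lower in any line. Their medians were 1.71, 1.23 and 0.93, against 0.00, -0.06 and -0.03 over all genes. The shares of all genes called higher were 17.3%, 20.2% and 13.6% in the same order of lines, and those lower 21.2%, 25.7% and 18.6%. HMOX1, the heme oxygenase that BACH1 represses, rose in KMS-11 by 2.00 (SE 0.19) and in KMS-12 by 3.27 (SE 0.20), and had a value of 0.93 in RPMI8226 (SE 0.20) that was 0.59 without RPMI8226 JQ1 replicate 1 (adjusted p = 0.0567). GCLC, the catalytic subunit for glutathione synthesis, rose by 1.31, 0.97 and 1.05 (SE 0.10 in each), and TXNRD1, thioredoxin reductase, by 1.84, 0.78 and 0.89 (SE 0.11 in each). With library sizes alone, the KMS-12 values were 0.20 for GCLC (adjusted p = 0.0608) and 0.01 for TXNRD1 (adjusted p = 0.984).

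Of 7 genes that act on the turnover of MAF protein, 1 was called higher and 1 lower with JQ1 in KMS-11, with 5 and 0 for KMS-12 and 3 and 0 for RPMI8226. Their medians were 0.19, 0.34 and 0.23, against 0.00, -0.06 and -0.03 over all genes. The shares of all genes called higher were 17.3%, 20.2% and 13.6% in the same order of lines, and those lower 21.2%, 25.7% and 18.6%. GSK3B, the kinase that marks MAF for degradation, rose in KMS-11 by 0.60 (SE 0.11), or 0.34 with library sizes alone. The GSK3B values in KMS-12 (0.28, adjusted p = 0.0398) and RPMI8226 (0.37, adjusted p = 0.013) were called too, but the first was lost without any single KMS-12 library and turned to -0.49 with library sizes alone, and the second was lost without RPMI8226 DMSO replicate 2 (0.32, adjusted p = 0.117), JQ1 replicate 1 (adjusted p = 0.0521) or JQ1 replicate 2 (adjusted p = 0.052). OTUB1 and USP5, deubiquitinating enzymes, had 0.45 (SE 0.10) and 0.54 (SE 0.12) in KMS-12, both called, and -0.32 and -0.23 with library sizes alone. USP5 had 0.54 in RPMI8226 (SE 0.13, adjusted p = 0.00283), lost without RPMI8226 DMSO replicate 2 (0.35, adjusted p = 0.081). TRIB1, a pseudokinase scaffold, fell in KMS-11 by 1.19 (SE 0.18), from 53.7 ± 2.82 to 23.5 ± 0.325 CPM (SD, n = 2). It rose in KMS-12 by 1.58 (SE 0.18), from 21.1 ± 2.14 to 63.1 ± 1.21 CPM, or by 0.81 with library sizes alone. Protein levels were not measured here.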

How the data were processed

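RNA-seq counts of 12 libraries were used, 2 for each of 3 myeloma lines with DMSO or JQ1. Total RNA was depleted of ribosomal RNA and made into stranded libraries, per the labels' protocols. The authors deposited raw read counts per gene, whole numbers that are not normalized. The submitters' processing notes name hg38, GRCh38.p13, DESeq2 and MACS2 without roles. Aligner, counter and strand setting: not given in the sources used here. The 7 genes and all gene lists were chosen with earlier results of these data known.

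Symbols were matched for 60437 of 60666 gene IDs. Genes were kept by filterByExpr (minimum count 10, minimum total 15), and 23493 remained, while 19667 had no read. Libraries were scaled by TMM and tested with edgeR 4.0.16 (R 4.3.3), a robust quasi-likelihood fit of 6 group means over all 12 libraries. P-values were adjusted by Benjamini-Hochberg over all genes tested and called under 0.05. The procedure was tested on simulated data. A group with 0 reads was set to a floor of 3 counts over the group for a bound, and no fold is given where both groups had at most 3 counts. Alternatives were RLE scaling, library sizes alone, a filter of 1 read only, a filter on a mean level of 1 CPM, DESeq2 1.42.0, limma-voom (limma 3.58.1), a replicate block and leaving out each library. Replicates of a group differed by more than counting noise (chi-square per degree of freedom 5.64 to 22.3). Positions and exon lengths came from GENCODE 29.

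Named besides the 7 genes were up to 4 genes of each list, those with the smallest adjusted p in any JQ1 comparison and a mean of at least 1 CPM, all tested genes of the MAF group and the MAF neighbours, and the 5 genes with the profile nearest to MAF. Some genes that the rule names are not reported here. MAFA falls outside that rule and was named after its values were seen.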

Additional observations from a re-analysis of the deposited data

Results flagged for a closer look

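The JQ1 responses of 3 genes differed between the MAF lines and KMS-12 by a test of the difference itself (edgeR's quasi-likelihood test with Benjamini-Hochberg adjustment). The mean log2 response of KMS-11 and RPMI8226 minus that of KMS-12 was -1.84 for MAFF, 0.66 for MAFG and -2.92 for ITGB7. For ITGB7 the MAF lines had values on opposite sides of 0, so that their mean describes neither. Between the MAF lines, the MAFF response in RPMI8226 minus that in KMS-11 was -1.04.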

How the results depend on the processing

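Over the alternatives, 853 of 941 values of the 7 genes kept direction and side of the threshold, 22 lost a call, 46 gained one and 20 changed sign. For the other named genes, 1657 of 1728 kept both, 58 lost a call, 4 gained one and 9 changed sign. The cause of these changes was not tested. The JQ1 value in RPMI8226 was, for MAF and MAFG, -0.0293 and -0.0303 with RLE scaling, -0.0184 and -0.0199 with library sizes alone, -0.00624 and -0.00789 with a filter on a mean of 1 CPM, and -0.0294 and -0.0302 with DESeq2. Leaving out 1 library gave -0.23 to 0.22 for MAF and -0.11 to 0.12 for MAFG there. Library sizes alone gave, in KMS-11, -0.0817 for MAFG, -0.21 for MAFK, -0.0163 for BACH1 and -0.19 for CCND2, and in KMS-12, -0.68 for MAFF, -0.15 for BACH1, -0.49 for GSK3B, -0.32 for MARK2, -0.32 for OTUB1, -0.15 for TLN1 and -0.23 for USP5, with 0.0619 for the MAFG response of RPMI8226 minus KMS-11. Without 1 library, CCND2 in KMS-11 lay between -0.31 and 0.38, MAFF in KMS-12 between -0.11 and 0.27, and MAFK in KMS-12 between -0.21 and 0.000805. Over all genes, the calls for the response of the MAF lines minus KMS-12 went from 5525 to 9766 with library sizes alone, and 90.7% of those were higher, against 50.2%. For the response of RPMI8226 minus KMS-11, 2685 genes were called, 58.7% of them higher, against 81.3% with library sizes alone. Leaving out 1 library gave 1639 to 3155 calls there and 3848 to 6232 for the response of the MAF lines minus KMS-12. For JQ1 against DMSO the same ranges were, with the count from all libraries in parentheses, 7042 to 9134 for KMS-11 (9040), 8284 to 11506 for KMS-12 (10804) and 5085 to 8618 for RPMI8226 (7574), and for the lines without drug 13097 to 15238, 12879 to 15686 and 11652 to 14113. The labels tie samples of a line only by replicate number. The correlation of deviations between DMSO and JQ1 was 0.153 for KMS-11, 0.0318 for KMS-12 and 0.18 for RPMI8226. For groups of different lines it ran from -0.0536 to 0.0971, and pairing was not tested. A replicate block over all groups gave 9073, 10818 and 7641 JQ1 calls in KMS-11, KMS-12 and RPMI8226, and a block within each line 9637, 11244 and 8421. With the block within each line, ITGB7 was called in KMS-11 (-0.67, adjusted p = 0.000172) and RPMI8226 (0.67, adjusted p = 0.000242). With 2 libraries a group, depth limits MAF, CCR1 and NUAK1 in KMS-12, which lay at or under the floor.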
